A study of Mus musculus with 4 samples.

Results

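The histone cluster genes were taken as all genes whose symbol begins with Hist1h, Hist2h, Hist3h or Hist4h and that had at least 1 UMI (1 tagged RNA molecule) in the deposited count matrix. Of 67 such symbols listed, 64 met the rule, among 19431 genes with a UMI in the whole series. The other 3 symbols, Hist2h2aa2, Hist1h2bq and Hist1h2ba, had 0 UMIs. The 64 members encode the linker histone H1 (6 genes) and the core histones H2A (17 genes), H2B (16 genes), H3 (12 genes) and H4 (13 genes).

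The cells came from the proximal and distal tibia of 8-week-old mice, released with dispase, collagenase and trypsin and run as 10x Genomics droplet RNA libraries. All animals carried Col10a1Cre with a Rosa26-Tdtomato reporter and were heterozygous at Irx3 (Irx3 +/Δ) and at Irx5 (Irx5 +/-). The labels name this heterozygote as the control, without PTH, and no other group is described here. Col10a1 is a gene of hypertrophic chondrocytes, so Cre was driven in that cartilage lineage and the blood cells described here are those of heterozygous controls. The 4 sample records share 1 matrix with 1 barcode suffix and count as 1 library. There are therefore no replicates: every interval covers counting error only, no p-value is given, and a member is called higher or lower at a fold of 2 or more with at least 20 UMIs over both groups. A member can reach that limit through the group where it is high, so counts of members called are not independent of the limit.

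Histones package DNA, and most of their new synthesis accompanies DNA replication. The mRNAs of replication-dependent histone genes end in a conserved stem-loop bound by the protein SLBP in place of a poly(A) tail. Some of these genes can also give polyadenylated mRNA from a signal beyond the stem-loop, which is known mostly from differentiated cells. Oligo(dT) capture, the usual first step of droplet assays, favours polyadenylated RNA, so the UMI counts of these genes need not follow their total mRNA. Levels are given as CPM, the UMIs of a gene scaled to a fixed total of UMIs in the same group of cells, and the order of members is an order of captured UMIs.

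The members lie in 4 clusters on the GRCm38 build. In the GENCODE M21 annotation, 52 lie on chromosome 13 between 21715763 and 23934851, 9 on chromosome 3 between 96219865 and 96270132, and 2 on chromosome 11, Hist3h2a and Hist3h2ba. The remaining member, Hist4h4, lies on chromosome 6. The histone stem-loop motif (16 bases with a TTTT-containing loop, sought on the sense strand) was found after the stop codon in the annotated transcript of 43 of the 64 members. In 18 of these the annotated transcript ran on for over 300 bases past the motif, in 25 it stopped within 300 bases, and in the other 21 members no motif was found in the annotated transcript.

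The sites below, read 5′ to 3′ from those transcripts, are shown because the members differ little in the stem-loop and much in what is annotated after it. Capitals mark the 16-base motif. The first 6 belong to members with over 300 annotated bases after the motif, and the last 4 to members with at most 300.
Hist1h1c, chr13:23739507-23739532, plus strand: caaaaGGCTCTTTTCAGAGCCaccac
Hist3h2a, chr11:58955167-58955192, plus strand: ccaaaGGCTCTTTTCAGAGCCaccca
Hist1h2be, chr13:23585526-23585551, minus strand: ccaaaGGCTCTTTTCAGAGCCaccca
Hist1h2ac, chr13:23683472-23683497, minus strand: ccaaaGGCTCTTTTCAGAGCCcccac
Hist4h4, chr6:136803993-136804018, minus strand: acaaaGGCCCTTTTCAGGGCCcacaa
Hist1h4i, chr13:22040961-22040986, minus strand: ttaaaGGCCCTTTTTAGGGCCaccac
Hist1h2ap, chr13:21833026-21833049, minus strand: aaaaaGGCTCTTTTCAGAGCCatc
Hist1h2ae, chr13:23570663-23570688, minus strand: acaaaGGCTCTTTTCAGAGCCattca
Hist1h3c, chr13:23745042-23745067, minus strand: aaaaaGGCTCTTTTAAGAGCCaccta
Hist1h2ab, chr13:23751567-23751592, plus strand: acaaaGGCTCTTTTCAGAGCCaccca
After these sites the annotated transcript of Hist1h1c continued for 840 bases, that of Hist3h2a for 1643, Hist1h2be for 1861, Hist1h2ac for 2010, Hist4h4 for 2445 and Hist1h4i for 330. In the second set it continued for 3 bases in Hist1h2ap, 151 in Hist1h2ae, 74 in Hist1h3c and 11 in Hist1h2ab.

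Promoters of the members held known histone promoter elements more often than promoters at large. RefSeq (GRCm38.p6) gave 1 promoter of 300 bases, from 250 bases before the start, for 58 of the 64 members. CCAAT, on either strand, was in 84.48% of them (49 of 58) and in 37.92% of 27025 promoters of all genes, and TATAAA, on either strand, in 58.62% against 14.16%. The H4 genes differed, with CCAAT in 3 of 12, whereas all 6 H1, 16 H2A, 14 H2B and 10 H3 promoters held it. AAACACA, on either strand, a sequence known from H1 promoters, was in 5 of 6 H1 genes, in 13.79% of the members' promoters and in 7.138% of all promoters. Some H2A and H2B genes lie head to head with overlapping windows, so the same matches count for both. Hist1h2bl (chr13:21716134-21716433) and Hist1h2ai (chr13:21716162-21716461) are such a pair. The 58 windows are therefore not all separate sequences. The motif matches are a description of the letters and no measure of binding.

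The next sequences show the promoters of an H1 gene with a high cycling over non-cycling ratio in B lineage cells, of one with a low ratio, and of the H2B gene that differed most between lineages. Capitals mark the 3 elements named above, on either strand.
Hist1h1b (H1f5 in RefSeq), chr13:21780576-21780875, minus strand: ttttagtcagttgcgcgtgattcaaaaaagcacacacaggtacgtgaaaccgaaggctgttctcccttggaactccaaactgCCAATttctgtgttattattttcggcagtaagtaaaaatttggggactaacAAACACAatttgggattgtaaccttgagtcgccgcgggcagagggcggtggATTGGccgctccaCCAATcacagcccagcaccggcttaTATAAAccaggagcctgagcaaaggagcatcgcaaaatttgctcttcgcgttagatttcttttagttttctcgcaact
Hist1h1c (H1f2 in RefSeq), chr13:23738557-23738856, plus strand: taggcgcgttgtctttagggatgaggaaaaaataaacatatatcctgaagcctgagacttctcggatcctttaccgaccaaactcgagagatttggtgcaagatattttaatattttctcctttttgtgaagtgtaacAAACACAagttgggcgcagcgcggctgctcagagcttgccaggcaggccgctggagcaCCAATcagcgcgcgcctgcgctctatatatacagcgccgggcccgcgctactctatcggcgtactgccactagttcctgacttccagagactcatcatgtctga
Hist3h2ba (H2bu2 in RefSeq), chr11:58948661-58948960, plus strand: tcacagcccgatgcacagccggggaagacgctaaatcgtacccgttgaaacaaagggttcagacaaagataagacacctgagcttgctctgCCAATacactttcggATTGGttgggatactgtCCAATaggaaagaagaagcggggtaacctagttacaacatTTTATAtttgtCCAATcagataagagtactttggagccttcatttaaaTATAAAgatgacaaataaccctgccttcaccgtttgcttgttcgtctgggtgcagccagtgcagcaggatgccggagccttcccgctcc
The H1f5 window held 3 CCAAT matches, AAACACA and TATAAA. The H1f2 window held 1 CCAAT match and AAACACA, and the H2bu2 window held 4 CCAAT matches and TATAAA.

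Near-identical copies limit what can be said of single members. Among the last 400 bases of each transcript, over 50% of 60-base words were shared with another gene in 33 members, and no word was shared in 19. All such words were shared in Hist1h2ap, with other H2A genes among them, and in Hist1h1e, which overlaps the annotation of Hist1h2be on the same strand. The labels and headers do not say how reads fitting several genes were counted. UMIs of these members may therefore be lost, or split or moved between copies, so their counts may be too low. Hist1h1c, Hist1h1b, Hist1h2bc, Hist3h2a, Hist1h4i, Hist1h2be, Hist1h2ac and Hist1h1a shared no word. Of these, Hist3h2a overlaps Trim17 on the same strand in the annotation, Hist1h2ac overlaps Gm24991, and Hist1h2be overlaps Hist1h1e and Gm11398.

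Depth per barcode ranged from 500 to 80413 UMIs (median 3812), and 10485 of 15014 barcodes were kept as cells. Marker genes named 3474 B lineage, 2828 neutrophil, 1920 erythroid, 790 monocyte or macrophage, 305 T or NK, 298 granulocyte or monocyte progenitor, 153 dendritic, 114 osteoblast, 83 haematopoietic progenitor, 49 plasma and 34 osteoclast cells, and 437 cells stayed unnamed. The tissue label is tibia, and most kept cells were blood cells of the marrow by their markers. Cells with at least 1000 UMIs outside haemoglobin were called cycling where listed S and G2/M genes made up 0.5% or more of those UMIs (2677 cells), and non-cycling at 0.1% or less (4870 cells). The other 1708 lay between, and no histone gene was in either list.

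Over all kept cells the members gave 120518 UMIs, which is 1666 CPM. H2A genes held 39.6% of these UMIs, H1 genes 30.5%, H2B genes 12.5%, H3 genes 8.85% and H4 genes 8.52%. Hist1h2ap had the most UMIs (19488), followed by Hist1h2ae (15810), both H2A genes, and by the linker histone genes Hist1h1b (13214) and Hist1h1c (11008). These 4 members held 49.4% of histone UMIs and the first 25 held 90.6%. At the other end, Hist1h1t, the testis-type H1 gene, had 6 UMIs in kept cells and Hist1h2aa, an H2A gene also known from testis, had 0, so its UMIs lay in barcodes that were not kept.

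**Figure D1:**
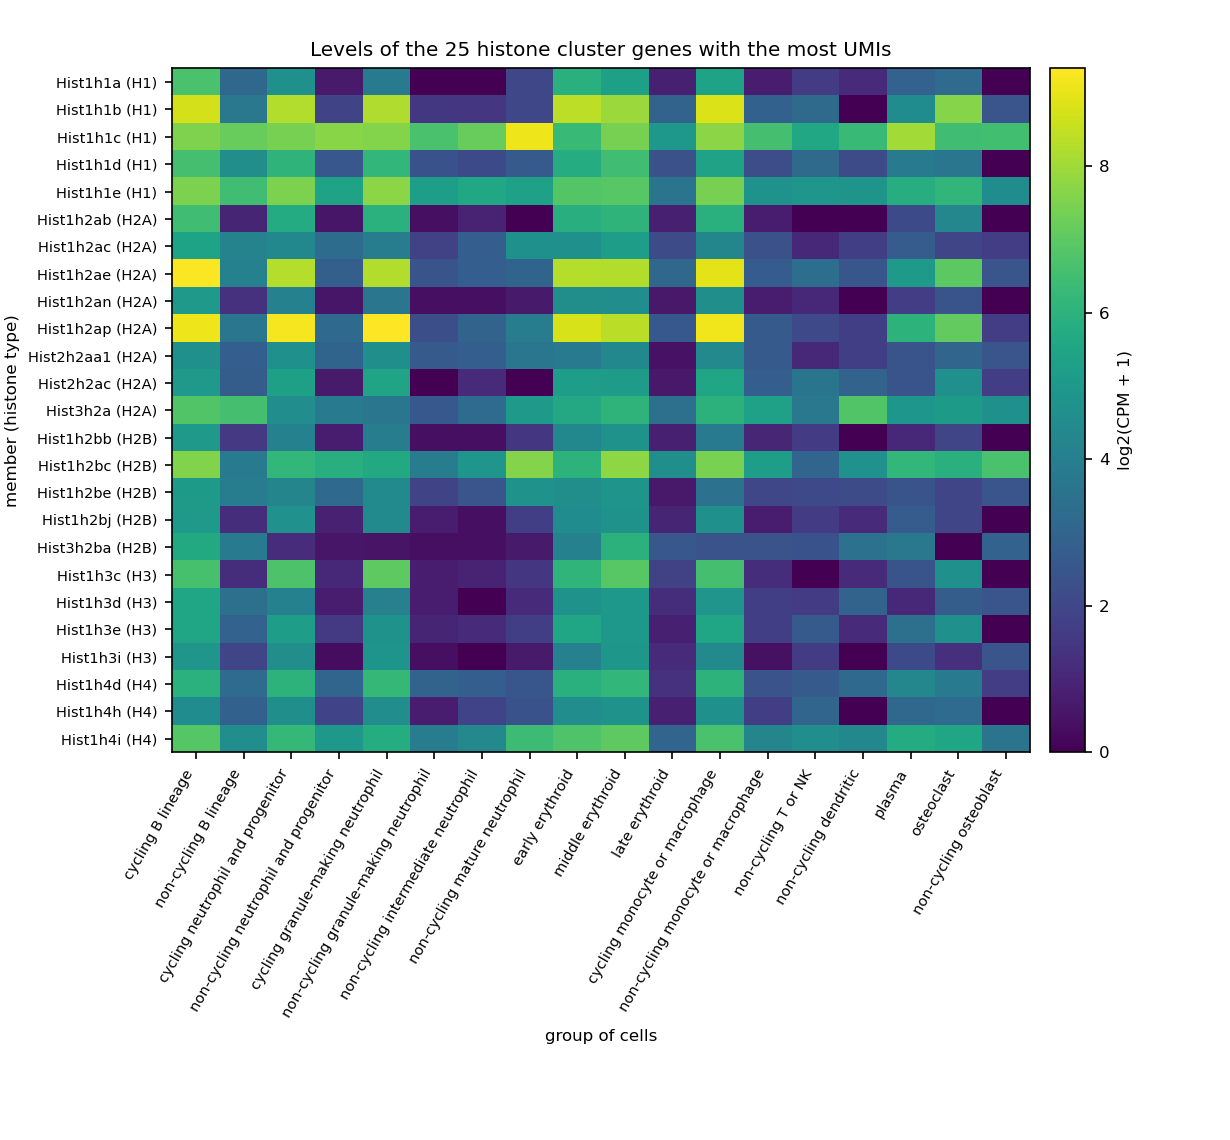
Levels of the 25 members with the most UMIs (rows, with histone type) in 18 groups of cells (columns), as log2(CPM + 1). Hist1h2ap, Hist1h2ae, Hist1h1b and Hist1h3c are bright in cycling groups and in early and middle erythroid cells, and Hist1h1c is bright in nearly every column, most of all in mature neutrophils.

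Cycling B lineage cells held 3552 CPM of histone cluster UMIs (95% Poisson interval 3517 to 3587, 991 cells), against 585 CPM (564 to 606, 1798 cells) in non-cycling B lineage cells. The ratio was 6.07 (5.85 to 6.30). Of the 64 members, 58 had enough UMIs, and 52 of these were higher in cycling cells and 0 lower, where 14.6% of all 10911 genes tested were higher and 16.5% lower. The median log2 ratio was 3.04 over these members and -0.13 over all genes. Cycling cells were also deeper, with a median of 9137 UMIs against 2631 in non-cycling cells. With every cell thinned to 1000 UMIs the log2 ratio of the sum was 2.66 against 2.60 unthinned. Then 30 members were higher among the fewer UMIs left, a count that is not set against the share of all genes in thinned cells.

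The members spread widely around that ratio in B lineage cells. Hist1h2ap had 547 CPM in cycling cells against 11.5 CPM in non-cycling cells, a ratio of 47.3 (36.8 to 61.9). Hist1h2ae had 626 CPM against 16.1 CPM in the same groups, a ratio of 38.9 (31.4 to 48.7). Hist1h1b, a linker histone gene known for expression in dividing cells, had 423 CPM in cycling and 12.3 CPM in non-cycling cells. Hist1h2ab, with 87.7 CPM against 0.947 CPM, had the highest ratio of the members with UMIs on both sides at 92.6 (39.5 to 286). Hist1h3c had 96.6 CPM against 1.33 CPM. Hist1h3g had 0 UMIs in non-cycling B lineage cells, so that its level in cycling cells was at least 23.7-fold higher when 3 UMIs are taken as the floor of the non-cycling group.

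At the other end stood Hist3h2a, an H2A gene outside the large cluster, with 110 CPM in cycling and 94.7 CPM in non-cycling B lineage cells, a ratio of 1.16 (1.05 to 1.29). Hist1h1c, the gene of linker histone H1.2, had 184 CPM in cycling and 141 CPM in non-cycling cells, a ratio of 1.30 (1.197 to 1.42). Hist4h4 had 8.52 CPM against 6.06 CPM, and its interval, 0.934 to 2.17, spanned 1. These members were all under the fold of 2. Hist1h1e, the H1.4 gene, was just past it, with 179 CPM in cycling and 87.3 CPM in non-cycling cells (ratio 2.05, 1.85 to 2.27). These ratios pool the stages of the B lineage. Cells with surrogate light chain genes made up 465 of the 991 cycling but 132 of the 1798 non-cycling cells. Within that stage, read after the pooled values were seen, Hist1h1c had 137 CPM in cycling and 65.8 CPM in non-cycling cells. Hist1h1e had 146 CPM against 65.8 CPM there. The makeup differed as well. In cycling B lineage cells Hist1h2ae, Hist1h2ap and Hist1h1b held the most histone UMIs (17.6%, 15.4% and 11.9%), and in non-cycling ones Hist1h1c, Hist3h2a and Hist1h1e did (24.1%, 16.2% and 14.9%).

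The sums were also higher in cycling cells of the other lineages. In cycling neutrophils and progenitors the sum was 2521 CPM (616 cells), against 434 CPM in non-cycling ones (2004 cells), a ratio of 5.81 (5.61 to 6.01). There, 51 of 55 members tested were higher and 0 lower, against 32.7% of all genes higher. With cells thinned to 1000 UMIs, the log2 ratio of the sum was 2.00 against 2.54 unthinned. After thinning, 13 members were higher and 1 was lower, counts that are not set against the share of all genes in thinned cells. In cycling monocytes or macrophages the sum was 3024 CPM (134 cells) against 308 CPM (448 cells), a ratio of 9.82 (9.18 to 10.5), with 36 of 40 members tested higher and 13% of all genes higher. Cycling erythroid cells had 2934 CPM (757 cells) against 324 CPM in non-cycling erythroid cells (77 cells), a ratio of 9.05 (7.85 to 10.5).

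The erythroid comparison rests on few UMIs, since the non-cycling cells held 192 histone UMIs in all. It also mixes the haemoglobin stages given below. The non-cycling cells were 62 middle, 14 late and 1 early, and the cycling cells 459 middle, 66 late and 232 early. Of 55 members tested there, 50 were higher and 0 lower, against 51.8% of all genes higher and 9.91% lower. Of these 55 members, 16 had 0 UMIs in the non-cycling cells, and for 9 of those 16 the bound from 3 UMIs was below a fold of 2. These 9 are counted among the 50 higher, although a fold of 2 was not resolved for them. With 192 UMIs on the non-cycling side, members reached the limit on UMIs over both groups mostly through the cycling cells. The limit left little room for a lower call, so the 0 lower is not read as a result. The counts of members higher, with haemoglobin or without, are not independent of the limit either. Haemoglobin took 34.2% of UMIs in the cycling and 65.4% in the non-cycling erythroid cells. With haemoglobin left out of the totals the sums were 4456 and 936 CPM in cycling and non-cycling cells, a ratio of 4.76, with 46 of 55 members higher and 29.7% of all genes higher.

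Single members of neutrophils and progenitors lay further from the sum. Hist1h1b had 302 CPM in cycling and 2.79 CPM in non-cycling cells, a ratio of 108 (72.6 to 169). Hist1h2ap had 585 CPM against 8.13 CPM in the same groups, and Hist1h3c 105 CPM against 1.05 CPM. Hist1h2af, an H2A gene, and the H2B genes Hist2h2bb and Hist1h2bg had 0 UMIs in the non-cycling cells and were at least 58.1, 27.1 and 20.2 times higher in cycling cells. Hist1h1c had 168 CPM in cycling and 206 CPM in non-cycling cells (ratio 0.819, 0.766 to 0.876), which is within the fold of 2. Hist1h2bc, an H2B gene, had 70.8 CPM in cycling and 56.1 CPM in non-cycling cells, a ratio of 1.26 (1.12 to 1.42), where the same gene had a ratio of 13.6 (10.7 to 17.4) in B lineage cells. Both ratios in neutrophils and progenitors pool the stages, and 740 of the 2004 non-cycling cells were mature neutrophils, in which both genes were high. Within the granule-making stage, a comparison chosen after these values were seen, Hist1h1c had 194 CPM in cycling and 99.0 CPM in non-cycling cells (ratio 1.96, 1.73 to 2.23), and Hist1h2bc 49.6 CPM against 14.05 CPM (ratio 3.53, 2.56 to 4.97).

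The share of cells with a UMI showed the same contrast. Hist1h1b was seen in 75% of cycling neutrophils and progenitors and in 0.948% of non-cycling ones, at median depths of 15134 and 3818 UMIs, and in 3.67% of non-cycling T or NK cells at 4060 UMIs. Thinned to 1000 UMIs a cell, the shares were 21.4% (exact Clopper-Pearson 95% interval 18.3 to 24.9) in cycling and 0.1497% in non-cycling neutrophils and progenitors. Hist1h1c was seen in 76.3% of cycling and 40.6% of non-cycling cells, and thinned in 11.5% of cycling and 19.4% of non-cycling cells. The Hist1h1b share in non-cycling neutrophils and progenitors is thus at or below that in T or NK cells and is not read as expression.

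In B lineage cells and in neutrophils and progenitors, members with a long annotated stretch after the stem-loop had the lower median ratio of cycling over non-cycling cells. In B lineage cells, 12 of the 18 members with over 300 bases there had a ratio below 5, with a median of 2.76 over the 18. Among the 22 tested members with at most 300 bases the ratio was below 5 in 4, with a median of 11.7. In neutrophils and progenitors the medians were 3.66 for the members with over 300 bases and 27.9 for those with at most 300, members at 0 UMIs on 1 side being set at their bound. In erythroid cells the medians lay close and in the other order, at 5.73 over 16 members with over 300 bases and 5.40 over 22 with at most 300. Of these, 2 and 7 members were set at their bound, which is a lower limit of the ratio. The erythroid medians may therefore be too low, more so for the members with at most 300 bases, and their order was not resolved. For non-cycling mature over granule-making neutrophils, the medians were 5.64 over 8 tested members with over 300 bases and 2.21 over 3 with at most 300. The members with no motif were not compared as a class, because 14 of these 21 had fewer than 16 annotated bases after the stop codon, too few to hold the motif. The long and short classes also differed in transcript-end words shared with other genes. Most members with over 300 bases shared none, but Hist1h1e and Hist2h3c1 shared 100%, Hist1h3f 83.9% and Hist1h3e 82.7%. Tested members with at most 300 bases shared between 10.9% (Hist3h2ba) and 100% (Hist1h2ap and Hist2h2aa1). The effect of shared words on the medians was not tested.

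Single members departed from their class. Hist1h3f, with 365 bases after the motif, had ratios of 10.1 in B lineage cells and 88.9 in neutrophils and progenitors, the highest of its class in the second lineage. Hist1h2bh, with 1214 bases, had 27.7 and 42.7 in that order, and Hist1h1d, with 4884 bases, had 3.96 and 14.03. Hist1h2bc has no motif in its annotated transcript, which has 2 exons. The class is no measure of polyadenylation. The poly(A) signal AATAAA was not found after the motif in Hist1h1e, Hist1h4i, Hist1h4d, Hist1h3d, Hist1h3e, Hist1h3f, Hist1h4c and Hist2h3c2, all with over 300 bases. It was found in Hist1h2ae, Hist3h2ba and Hist1h1t, all with at most 300. The annotation was not checked against reads.

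**Figure D2:**
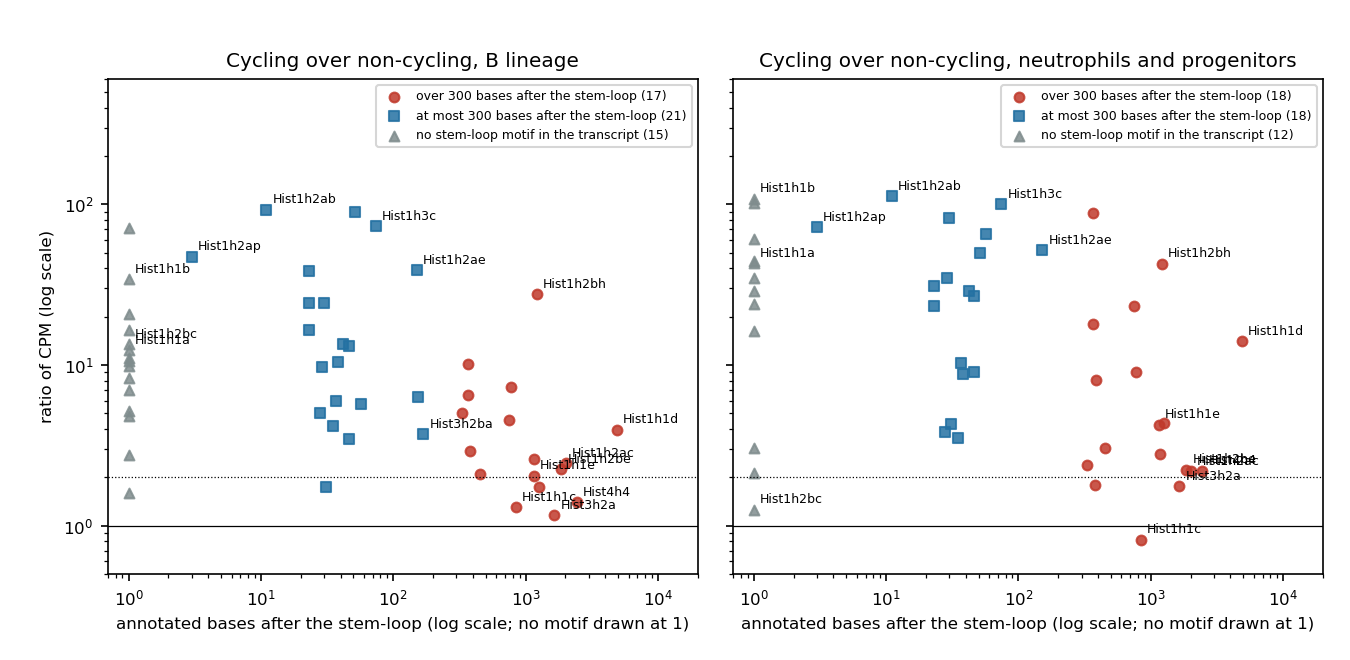
Ratio of CPM in cycling over non-cycling cells (log scale) against annotated bases after the stem-loop (log scale) for each tested member with UMIs on both sides, in the B lineage (left) and in neutrophils and progenitors (right). The solid line marks equality and the dotted line a fold of 2, and members without the motif are drawn at 1 base. Red points (over 300 bases) lie mostly below blue ones, with Hist1h2bh and Hist1h3f among the red points above 10 in both panels.

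Among non-cycling B lineage cells, the members kept outside cycling varied by stage. Stages were set by UMIs of marker genes, so a gate can rest on a single UMI, and 240 cycling cells fell in the gate with Ighd or Fcer2a. That gate was applied before the one with Rag1 or Il2ra, and the 2 overlap in clusters. Cluster 0, led by Rag1, held 683 cells of the gate with Rag1 or Il2ra and 424 of the gate with Ighd or Fcer2a. Listed by gate, the sums were 470 CPM in cells with surrogate light chain genes (132 cells) and 824 CPM in cells with Rag1 or Il2ra (533 cells). They were 363 CPM in cells with Ms4a1 only (199 cells) and 515 CPM in cells with Ighd or Fcer2a (834 cells). Hist1h1c had 65.8 CPM (45.8 to 91.5), 218 CPM (194 to 244), 85 CPM (62.7 to 113) and 124 CPM (110 to 138) in that order, so that the cells with Rag1 or Il2ra stood above the other stages beyond counting error. Hist1h1e was also highest there, at 131 CPM (113 to 152) against 63.8 to 69.4 CPM in the others. Hist3h2a had 135 CPM (116 to 156) in those cells and 71.4 to 86.8 CPM in the others.

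Neutrophils were set in stages by the granule genes Camp, Ltf, Ngp, Chil3 and Cd177 (granule-making) and by Cxcr2 or Il1b (mature). Over all cells of both stages, the sum was 1105 CPM in mature neutrophils (898 cells) against 1524 CPM in granule-making ones (1043 cells), a ratio of 0.725 (0.692 to 0.758). Of 46 members tested, 7 were higher and 34 lower in mature cells, against 22.4% of all genes higher and 22.8% lower. Cycling cells made up 355 of the 1043 granule-making neutrophils. The log2 ratio of this sum, -0.46, was -0.069 with doublets kept and -0.061 at a higher minimum of UMIs per barcode, and it was 0.11 when cells were thinned to 1000 UMIs, with an interval from -0.017 to 0.23 that spanned 0.

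With cycling cells left out the stages ordered the other way, and that comparison was chosen after the first was seen. Non-cycling mature neutrophils had 1047 CPM (999 to 1097, 740 cells) against 221 CPM (205 to 238, 543 cells) in non-cycling granule-making neutrophils, a ratio of 4.73 (4.33 to 5.17). The 685 non-cycling cells between these stages had 313 CPM (295 to 333). Of the 13 members tested, 9 were higher in mature cells and 0 lower, against 23.0% of all genes higher and 10.3% lower. Hist1h2ac, Hist1h2be and Hist3h2a, for example, had 8, 9 and 16 UMIs in the granule-making cells. They reached the limit of 20 UMIs only with those of the mature cells. The limit thus favoured members high in mature cells, and these counts are not independent of it. The log2 ratio of the sum, 2.24, stayed between 2.06 and 2.37 under every alternative run.

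Hist1h1c led this difference, with 546 CPM (512 to 582) in non-cycling mature neutrophils against 99.0 CPM in non-cycling granule-making ones, a ratio of 5.52 (4.85 to 6.29), and with 142 CPM in the intermediate cells. It alone held 52.2% of histone UMIs in the mature cells. Hist1h2bc had 191 CPM in mature and 14.05 CPM in granule-making cells, a ratio of 13.6 (9.92 to 19.0), and Hist1h4i, an H4 gene, 82.8 CPM against 14.4 CPM, a ratio of 5.77 (4.11 to 8.23). Lower levels but like ratios were found for Hist1h2ac (24.7 CPM against 2.497 CPM, ratio 9.88), Hist1h2be (26.4 CPM against 2.81 CPM, ratio 9.40) and Hist3h2a (31.7 CPM against 4.99 CPM, ratio 6.35). Hist1h1e, another H1 gene on chromosome 13, had 39.3 CPM in mature and 36.2 CPM in granule-making cells (ratio 1.09, 0.792 to 1.48).

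The higher level in mature neutrophils was not tied to 1 cluster. In non-cycling cells of clusters 5 and 9, which hold most mature neutrophils, Hist1h1c had 473 and 529 CPM. Clusters 2 and 7, which hold most granule-making ones, had 93.6 and 93.1 CPM, with 45 non-cycling cells in cluster 2. Mature cells were shallower, with a median of 2050 UMIs against 5732 in granule-making cells, so a CPM can differ with the amount of other RNA. Counted per cell, without scaling, Hist1h1c gave 1.26 UMIs in mature and 0.584 UMIs in granule-making non-cycling cells, and Hist1h2bc 0.439 against 0.0829. Hist1h1e gave 0.0905 UMIs per cell in mature and 0.214 in granule-making cells, so that its near-equal CPM goes with fewer UMIs per cell. Thinned to 1000 UMIs, 34.3% of mature and 8.84% of granule-making cells had a Hist1h1c UMI, against 50.4% and 31.3% unthinned.

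**Figure D3:**
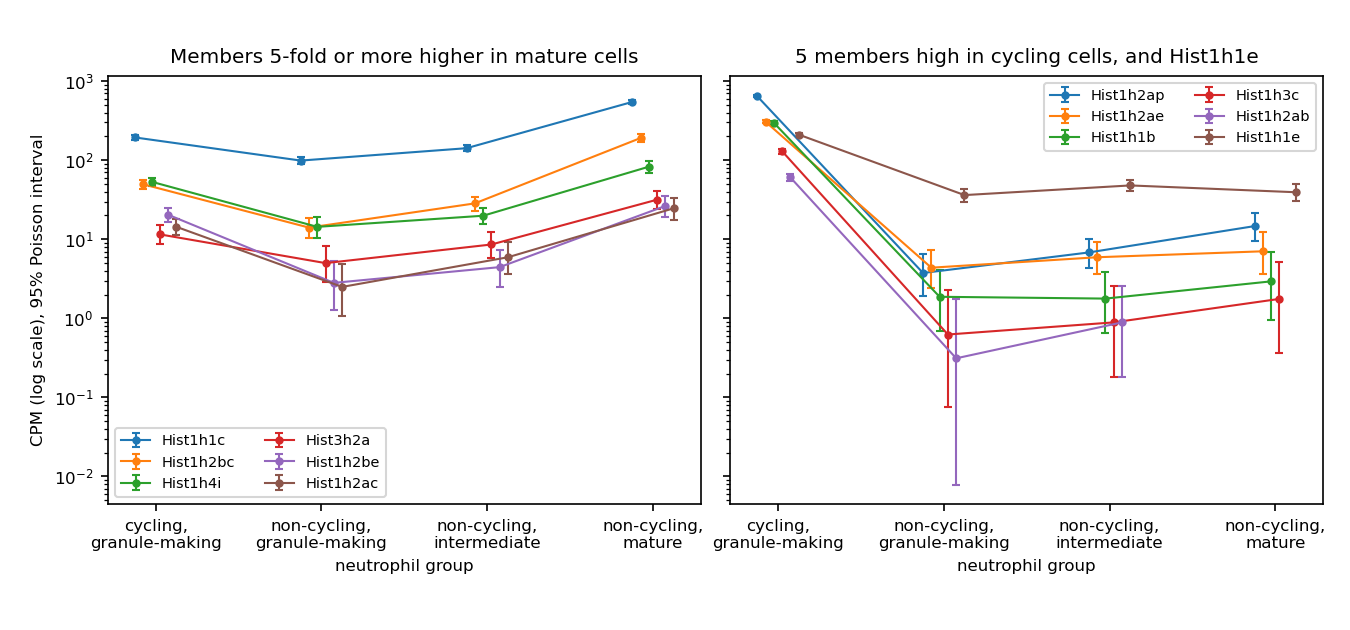
Levels of 12 members (CPM, log scale, with 95% Poisson intervals) in cycling granule-making neutrophils and in non-cycling granule-making, intermediate and mature neutrophils; groups with 0 UMIs are not drawn. In the left panel 6 members rise again between non-cycling granule-making and mature cells, to 546 CPM for Hist1h1c. In the right panel 5 members drop outside cycling cells to below 15 CPM, and Hist1h1e lies between 36.2 and 48.0 CPM in the non-cycling groups.

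Erythroid cells were set in stages by the share of their UMIs from haemoglobin genes: early under 20%, late over 75% and middle between. The sums were 2344 CPM in early (366 cells), 2625 CPM in middle (750 cells) and 142 CPM in late cells (804 cells). The late over early ratio was 0.0607 (0.0562 to 0.0655), and all 40 members tested were lower in late cells, where 94.8% of all genes were lower and 1.38% higher. Haemoglobin made up 86.7% of UMIs in late and 4.8% in early cells, and the median log2 ratio over all genes was -4.74, the same as over the members. Most early cells, 300 of 366, belonged to cluster 13, whose median depth was 1599 UMIs. By the cycling gate 232 early cells were cycling, 1 was non-cycling and 116 were too shallow for a call. Of the 804 late cells, 619 were too shallow, 66 were cycling and 14 non-cycling. The late over early ratios are therefore not separated from cycling.

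With haemoglobin left out of the totals, which moves the median of all genes by 2.84 on the log2 scale, the sums were 2462, 5478 and 1072 CPM in early, middle and late cells. The late over early ratio was then 0.436 (0.403 to 0.470), with 3 of 40 members higher and 28 lower, against 8.39% of all genes higher and 71.5% lower. Both shares of the members lay near these.

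The 3 members higher in late cells were Hist1h1c, Hist1h2bc and Hist3h2ba. Hist1h1c had 231 CPM without haemoglobin in late cells against 80.7 in early cells, a ratio of 2.86 (2.32 to 3.52), with 354 in middle cells. On the scale of all UMIs the same counts gave a ratio of 0.399. Hist1h2bc had 182 CPM in late cells against 68.4 in early cells, a ratio of 2.66 (2.11 to 3.36), and Hist3h2ba, an H2B gene, 35.8 against 17.2, a ratio of 2.09 (1.23 to 3.47). Per cell, Hist1h1c gave 0.200 UMIs in late and 0.590 UMIs in early cells, so the direction depends on the scale. Hist1h2ap was lower on either scale, with 37.3 CPM without haemoglobin in late cells against 454 in early cells, a ratio of 0.0822 (0.0535 to 0.121). Hist1h1a, another H1 gene, had a ratio of 0.0914, and Hist2h2bb had 0 UMIs in late cells.

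**Figure D4:**
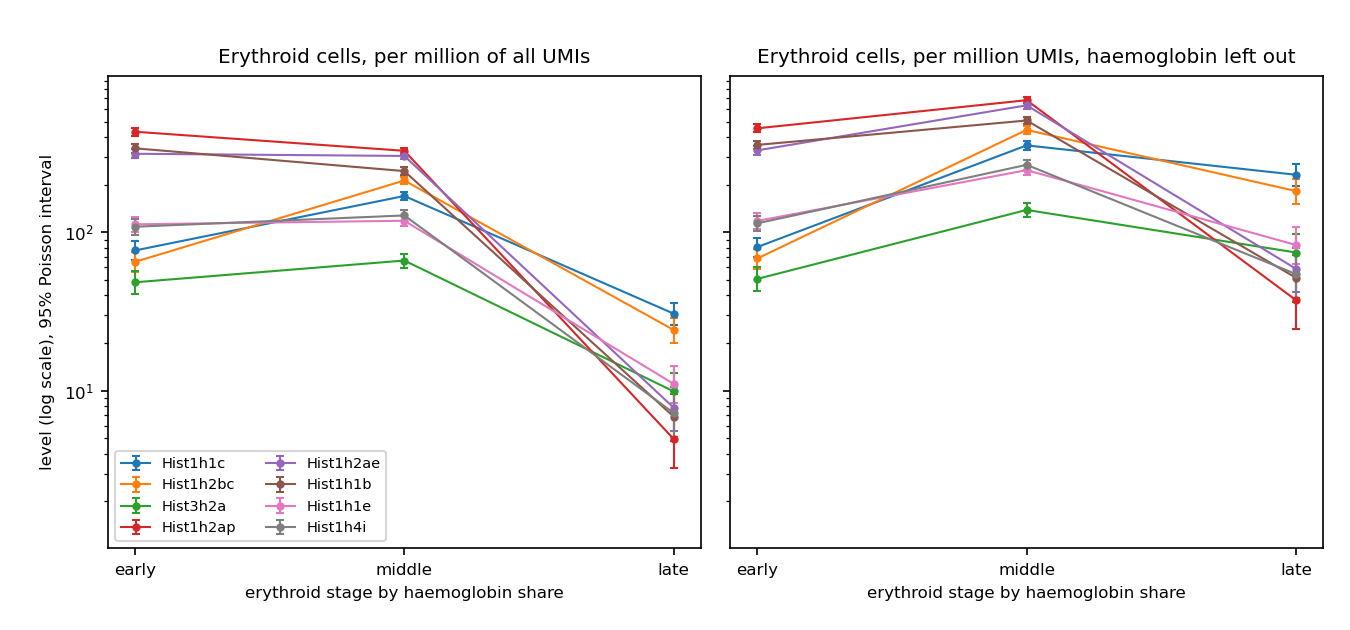
Levels of 8 members in early, middle and late erythroid cells, as CPM of all UMIs (left) and as CPM with haemoglobin genes left out of the total (right), on log scales with 95% Poisson intervals. On the left every member is lowest in late cells. On the right Hist1h1c, Hist1h2bc and Hist3h2a end above their early level, and Hist1h2ap ends lowest, at 37.3.

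Within cycling cells, histone UMIs were fewer in cells leaning to S genes than in cells leaning to G2/M genes. S-leaning cells (S genes at least 60% of listed UMIs, 695 cells) had 2127 CPM and G2/M-leaning cells (1370 cells) had 3334 CPM, a ratio of 0.638 (0.627 to 0.649). This lean is set by listed transcripts alone, and DNA content was not measured. It does not place a cell in a phase, so the ratios do not compare S phase with G2/M phase. Of 60 members tested, 0 were higher and 21 lower, against 11.8% of all genes higher and 6.53% lower. The ratio was 0.446 in B lineage cells (35 of 55 members lower and 0 higher, against 7.53% of all genes lower and 5.29% higher), 0.472 in erythroid cells (33 of 52 lower and 0 higher, against 7.59% lower and 59.8% higher) and 0.832 in neutrophils and progenitors (12 of 50 lower and 1 higher, against 4.73% lower and 13.5% higher). Haemoglobin took 10.5% of UMIs in S-leaning and 50.3% in G2/M-leaning erythroid cells. With haemoglobin left out of the totals the erythroid ratio was 0.262 (0.2503 to 0.274), with 50 of 52 members lower and 0 higher, against 16.1% of all genes lower and 31.2% higher.

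In B lineage cells the sum was 4617, 5177, 3329, 2637 and 983 CPM as the share of S genes went up in 5 bins of 20 percentage points, so that it was highest in the second bin. In neutrophils and progenitors it was 1816, 3026, 3278, 2511 and 289 CPM in the same bins, with 36 cells in the last. In erythroid cells it was 3040, 4339, 2775, 1822 and 647 CPM, with 28 cells in the last bin. Where the erythroid sum was highest depends on the scale, since with haemoglobin left out it was 7618, 6289, 3408, 2019 and 759 CPM, highest in the first bin.

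Members differed in where they were highest. In B lineage cells Hist1h2bc had 21.04 CPM in the bin with most S genes and 503 CPM in the bin with most G2/M genes, and Hist1h1c 69.8 and 496 CPM. Over S-leaning and G2/M-leaning B lineage cells, the ratio was 0.124 (0.106 to 0.145) for Hist1h2bc, 0.274 (0.243 to 0.308) for Hist1h1c, 0.234 (0.197 to 0.277) for Hist3h2a and 0.208 (0.159 to 0.270) for Hist3h2ba. Members far higher in cycling than in non-cycling cells did not lie together on this axis, at 0.719 (0.669 to 0.772) for Hist1h1b and 0.531 (0.498 to 0.567) for Hist1h2ap, but 0.399 (0.374 to 0.425) for Hist1h2ae and 0.338 (0.282 to 0.403) for Hist1h2ab. Hist1h1e, with 118 CPM in S-leaning and 261 CPM in G2/M-leaning cells, lay among them at 0.450 (0.402 to 0.504). Over all lineages the highest ratios were 1.61 for Hist1h4j, whose interval reached 0.998, 1.51 for Hist1h4a and 1.39 (1.24 to 1.56) for Hist1h1a. In neutrophils and progenitors Hist1h1a was the 1 member called higher, at 4.43 (3.24 to 6.08). In that lineage it had 62.8 CPM at 60 to 80% S genes and 3.8 CPM below 20%.

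**Figure D5:**
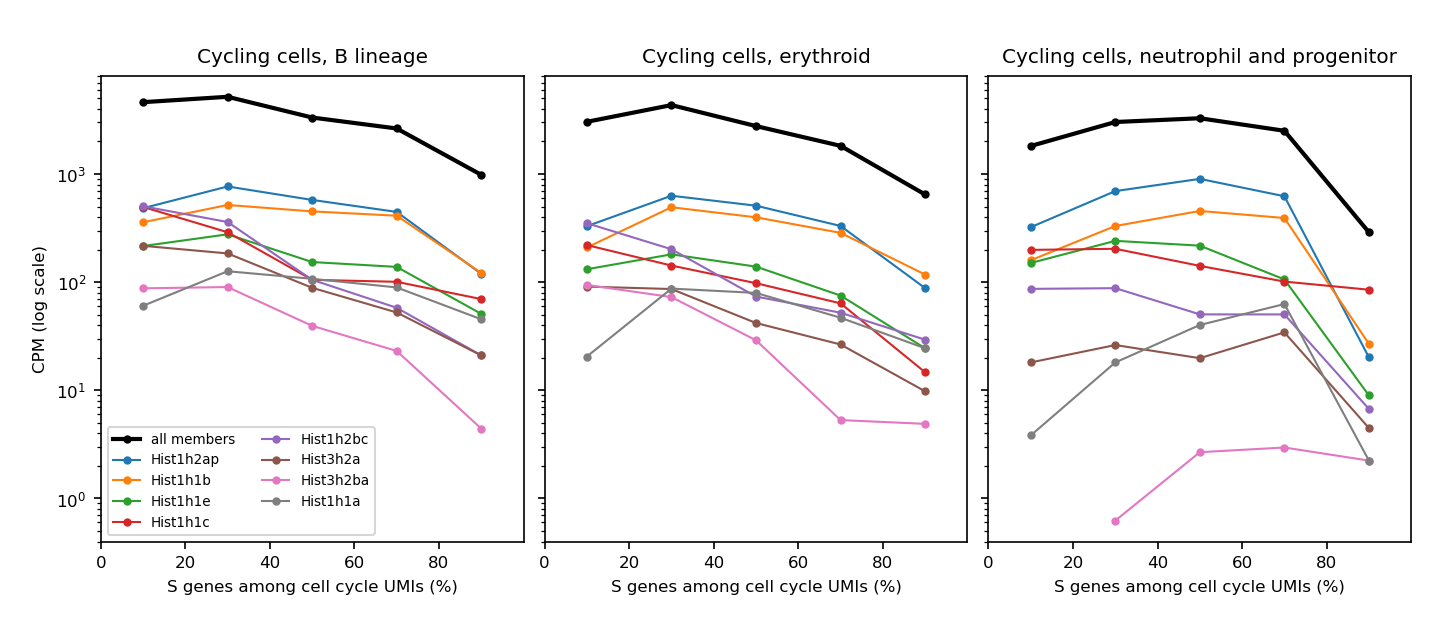
Levels (CPM, log scale) of the summed members (black) and of 8 members in cycling cells of 3 lineages, in bins of 20 percentage points by the share of S genes among listed cell cycle UMIs, drawn at bin centres; a bin with 0 UMIs is not drawn. On this scale of all UMIs the sum peaks at 20 to 40% in B lineage and erythroid cells and at 40 to 60% in neutrophils and progenitors, and Hist1h2bc and Hist1h1c decline towards the right in B lineage and erythroid cells.

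Members differed between cycling cells of different lineages. Cycling granule-making neutrophils had 2583 CPM in sum (355 cells) against 3552 CPM in cycling B lineage cells, a ratio of 0.727 (0.713 to 0.742). Of 60 members tested, 22 were lower and 0 higher, against 51.8% of all genes lower and 10.6% higher. Hist3h2ba had 0.405 CPM, from 2 UMIs, in the neutrophils against 49.8 CPM in the B lineage cells, a ratio of 0.00813 (0.000982 to 0.0295). Its neighbour on chromosome 11, Hist3h2a, had 11.5 CPM against 110 CPM (ratio 0.105, 0.0790 to 0.137), and Hist1h1a 13.2 CPM against 98.4 CPM (ratio 0.134, 0.102 to 0.172). Hist1h1c, with 194 CPM against 184 CPM, and Hist1h2ap, with 644 CPM against 547 CPM, differed little, and Hist1h2af had the highest ratio at 1.74 (1.36 to 2.24). Cycling monocytes or macrophages also had little Hist3h2ba, 4.19 CPM, and 63.3 CPM of Hist3h2a.

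Cycling middle erythroid cells had 3667 CPM in sum (459 cells) against 3552 CPM in cycling B lineage cells, a ratio of 1.03 (1.01 to 1.05), although haemoglobin took 46.7% of their UMIs. Of 60 members tested, 7 were higher and 1 lower, against 7.67% of all genes higher and 70.8% lower. Hist3h2ba was high in these cells too, with 87.1 CPM against 49.8 CPM. Hist4h4 had the highest ratio, with 22.2 CPM against 8.52 CPM (2.60, 1.92 to 3.52), and Hist2h3c2 the lowest, at 0.196 (0.0619 to 0.479). Without haemoglobin in the totals the log2 ratio of the sum was 0.95.

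Other classes held few cycling cells. In non-cycling dendritic cells Hist3h2a was highest, with 110 CPM (88.9 to 134) and 30.6% of histone UMIs. In non-cycling osteoblasts, the bone-forming cells, Hist1h2bc had 100.7 CPM (73.4 to 135) and Hist1h1c 89.5 CPM (63.9 to 122), from 52 cells. Plasma cells, the antibody-secreting end of the B lineage, had 259 CPM of Hist1h1c (227 to 295, 49 cells), against 141 CPM in non-cycling B lineage cells, and also 64.3 CPM of Hist1h2ap. The plasma cells and the 34 osteoclasts, with 136 CPM of Hist1h2ap and 199 CPM of Hist1h1b, were not separated by cycling.

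Other histone genes, and genes that act on histones or their mRNAs, were read from 3 lists, against the 14.6% of all genes that were higher and 16.5% that were lower in cycling B lineage cells. Of replacement and variant histone genes outside the clusters, 6 of 10 tested were higher in cycling than in non-cycling B lineage cells and 0 lower. H2afx, a variant that marks DNA breaks, had 545 CPM in cycling against 25.6 CPM in non-cycling cells (ratio 21.3) and H2afz 2864 CPM against 301 CPM (9.51), whereas the H3.3 genes H3f3a and H3f3b had ratios of 1.09 and 1.03. Of genes for histone mRNA synthesis and processing, 7 of 15 were higher and 0 lower, with E2f1 at 17.5 and Zfp473, which acts in histone pre-mRNA processing, at 16.6 from 36 UMIs, and with Lsm10 (0.805) and Pou2f1 (1.27) lowest. Slbp, named here for its binding to the stem-loop and not by the rule for named genes, had 492 CPM against 97.1 CPM (5.06). Of chaperone and deposition genes, 13 of 19 were higher and 0 lower, with Asf1b (38.7) and Chaf1b (27.4) highest and Asf1a (0.867) and Atrx (1.00) lowest, Chaf1b and Mcm2 being also in the S list of the cycling gate.

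In non-cycling neutrophils, where 23.0% of all genes were higher and 10.3% lower in mature than in granule-making cells, the lists gave other counts. Of 12 tested genes for histone mRNA synthesis and processing, and of 16 tested chaperone and deposition genes, 0 were higher and 0 lower in mature cells. Slbp had 56.4 CPM in mature and 60.9 CPM in granule-making cells (ratio 0.926, 0.718 to 1.19). Of 9 tested replacement and variant genes, 4 were higher and 2 lower, with a median log2 ratio of 0.59. H3f3b had 4227 CPM in mature against 1791 CPM in granule-making cells (ratio 2.36, 2.28 to 2.44), and H2afz 420 CPM against 2091 CPM (0.201, 0.186 to 0.217). In late erythroid cells with haemoglobin left out, H3f3a was higher than in early cells, with 5051 against 1745 CPM (2.89), and Slbp lower, with 34.4 against 517 CPM (0.0666).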

How the data were processed

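Per the file headers and values, the deposited matrix holds raw UMI counts per gene and barcode. Per the submitters' processing notes the authors used Cell Ranger 3.1.0 and Seurat 3 on mm10. The handling of reads that fit several genes is stated in none of them. A further matrix, of added sequences, was not used. The 4 records share 1 matrix and were treated as 1 library.

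From the counts, barcodes were kept from 500 UMIs and 200 genes upward if mitochondrial genes gave no more than 10% of UMIs, and 522 barcodes (4.74%) called doublets by Scrublet in scanpy 1.11.5 were removed. Cells were clustered without the histone members (2000 variable genes, 30 components, Leiden resolution 1.0, 37 clusters) and named from marker genes with at least 3 raised markers. The cycling lists hold no histone gene. Levels are CPM of summed UMIs with exact 95% Poisson intervals, ratios have exact conditional binomial intervals and shares Clopper-Pearson intervals. Intervals and floors (3 counts) cover counting error only. The scripts were tested on simulated data.

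The members, gene lists and tests were chosen with earlier results of these data known. Named are the 25 members with the most UMIs, the 3 highest and 3 lowest ratios of a comparison among members with at least 50 UMIs, and the 2 highest and 2 lowest genes of each list in the B lineage comparison. Others were singled out after their values were seen (Hist1h1t, Hist1h2aa, Hist1h2bh, Hist1h3f, Slbp among them). Alternatives were haemoglobin left out, thinning to 1000 UMIs, other limits on depth, mitochondrial share and cycling genes, doublets kept, another clustering, no filter on low counts and, added after the data were seen, single clusters left out, cycling compared within granule-making neutrophils, and haemoglobin left out of the erythroid S-gene comparison.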

Additional observations from a re-analysis of the deposited data

How the results depend on the processing

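Values are log2 ratios of summed histone UMIs or counts of members. The counts are given without the share of all genes called in the same setting, so they do not set the members apart from other genes. Across 11 settings the cycling over non-cycling ratio ranged from 2.43 to 2.97 in the B lineage (2.60 as reported), 2.25 to 3.65 in erythroid cells (3.18) and 2.00 to 2.62 in neutrophils and progenitors (2.54). With haemoglobin left out, erythroid cycling was 2.25, late over early erythroid -1.20 with 3 members higher, and S over G2/M -0.80. With cells thinned, the B lineage was 2.66 with 30 members higher, erythroid 2.79 with 23, and neutrophils and progenitors 2.00 with 13 higher and 1 lower. Thinned late over early erythroid was -4.47 with 8 lower, mature over granule-making 0.11 with 8 lower, and S over G2/M -0.74. At a cycling limit of 1.0%, the B lineage was 2.76, erythroid 3.47, S over G2/M -0.90, and 18 members were higher in neutrophils and progenitors. At 5% mitochondrial UMIs the values were 2.97 (B lineage), 3.65 (erythroid), -0.39 (mature over granule-making) and -0.54 (S over G2/M). At 20% they were 2.51 and 2.83 in B lineage and erythroid cells. With at least 1500 UMIs a barcode, the B lineage was 2.47, erythroid 3.49, neutrophils and progenitors 2.62, late over early -4.15, and mature over granule-making -0.061 with 17 lower. With doublets kept, the B lineage was 2.48, late over early -4.16, and mature over granule-making -0.069 with 18 lower. With members in the clustering the B lineage was 2.43. Without the filter on low counts 1 member was lower in erythroid cycling cells and 1 higher in S-leaning cells. Without cluster 13 late over early was -4.36 and S over G2/M -0.61. Single members changed sign as follows. With haemoglobin left out, late over early was 1.52 for Hist1h1c, 1.41 for Hist1h2bc, 0.55 for Hist3h2a and 1.06 for Hist3h2ba. Thinned, Hist1h3i and Hist1h4c were at -0.13 each (erythroid cycling, from 3 and 2 non-cycling UMIs), Hist1h2be at -0.51 (neutrophils and progenitors, from 8 cycling UMIs) and Hist2h3c2 at 0.39 (S over G2/M, from 2 and 3 UMIs). With at least 1500 UMIs, mature over granule-making was 0.094 for Hist1h2an, 0.11 for Hist1h3a, 0.25 for Hist1h3d and 0.19 for Hist1h3g. The intervals of these 8 thinned or deeper values all spanned 0, so their direction was not resolved. The cause was not tested. No paired analysis was possible because the 4 records share 1 matrix, and for the same reason no record could be left out. With 1 library, differences between animals are not measured.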
